A study of Mus musculus with 12 samples.

Results

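The genes followed here are 10 genes of the lipid droplet surface and of lipolysis, the breakdown of stored triglyceride into fatty acids and glycerol. They were taken by symbol from the deposited table of counts, which holds 11035 genes, and all 10 were found there. They are the perilipins Plin1, Plin2, Plin3 and Plin4, the droplet fusion gene Cidec, the lipases Pnpla2, Lipe and Mgll, and the lipase partners Abhd5 and G0s2. All 10 were among the 9519 genes with enough counts to be tested.

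RNA came from 3T3-L1, a mouse fibroblast line that becomes fat cells under hormones, in 12 libraries of 4 groups with 3 each. The KO_CM group was differentiated in media mixed at every step with equal parts of filtered medium conditioned by WEA breast cancer cells lacking p53. The WT_CM group received the same mix from WEA cells with p53 intact. The regular_diff group was differentiated without cancer cell medium. The preadipocyte group was left undifferentiated. The 3T3-L1 cells carry the genotype label WT in all groups. Since p53 was deleted in WEA and not in 3T3-L1 cells, its transcript here checks no label. Differentiation began 2 days past confluence with 2 µM rosiglitazone, an activator of the receptor PPARG, 1 µg/mL insulin, 0.5 mM IBMX, which raises cAMP, and 1 µM dexamethasone, a glucocorticoid. Insulin alone followed for 2 days, and then maintenance medium, all with 10% fetal bovine serum, whereas undifferentiated cells were kept in 10% calf serum. No group received the mix with unconditioned medium, so dilution of the inducers and factors of the cancer cells cannot be told apart in comparisons with regular_diff. Replicates are numbered 1 to 3 in KO_CM and WT_CM and 4 to 6 in regular_diff and preadipocyte libraries. If the numbers mark separate sets, these too cannot be told apart from the cancer cell media.

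In a fat cell, perilipins coat the droplet and limit the access of lipases. Plin1 is the coat protein typical of adipocytes and holds the lipase activator ABHD5 until protein kinase A phosphorylates it. ATGL, the product of Pnpla2, then makes diacylglycerol, hormone-sensitive lipase (Lipe) makes monoacylglycerol, and monoacylglycerol lipase (Mgll) finishes the reaction, while G0S2 inhibits ATGL. Plin2 and Plin3 coat droplets in most cell types. Cidec drives the fusion of droplets into large ones, and several of these genes are known targets of PPARG.

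Sequences before the transcription start were read for all 10 genes, in 13 windows of 250 bases from RefSeq on GRCm38.p6 (mm10), to show what the promoters of genes that move together do and do not share. Each is written 5′ to 3′ on the strand of the gene. Capitals in Plin1 (chr7:79732777-79733026, minus strand) and in the downstream start of Cidec (chr6:113434765-113435014, minus strand) mark TTGCNNAA, a core recognised by C/EBP factors. Capitals in Plin2 (chr4:86670060-86670309, minus strand) and Abhd5 (chr9:122351366-122351615, plus strand) mark AGGTCA, the core of nuclear receptor elements, here as its reverse complement.
Plin1: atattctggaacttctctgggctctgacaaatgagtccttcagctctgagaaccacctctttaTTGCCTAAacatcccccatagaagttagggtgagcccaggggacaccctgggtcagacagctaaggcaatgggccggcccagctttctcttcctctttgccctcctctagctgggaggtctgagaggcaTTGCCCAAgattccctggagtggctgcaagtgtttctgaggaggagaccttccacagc
Cidec: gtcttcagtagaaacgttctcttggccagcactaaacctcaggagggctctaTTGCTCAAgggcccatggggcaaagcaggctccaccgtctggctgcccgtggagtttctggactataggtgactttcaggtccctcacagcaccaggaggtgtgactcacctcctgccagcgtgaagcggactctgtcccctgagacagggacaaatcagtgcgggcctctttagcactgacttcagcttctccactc
Plin2: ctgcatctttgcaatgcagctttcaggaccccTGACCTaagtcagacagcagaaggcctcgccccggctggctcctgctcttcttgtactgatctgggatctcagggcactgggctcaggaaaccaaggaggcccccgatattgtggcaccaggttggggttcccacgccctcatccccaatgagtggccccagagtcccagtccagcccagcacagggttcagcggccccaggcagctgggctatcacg
Abhd5: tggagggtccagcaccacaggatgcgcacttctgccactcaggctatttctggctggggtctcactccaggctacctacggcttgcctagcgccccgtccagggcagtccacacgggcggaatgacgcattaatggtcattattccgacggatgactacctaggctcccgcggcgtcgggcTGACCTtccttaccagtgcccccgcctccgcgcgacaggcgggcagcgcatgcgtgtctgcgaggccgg

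The TTGCNNAA core lies 187 and 58 bases before the Plin1 start and 198 bases before the Cidec start. It occurs in no window of the other 8 genes, and in 9.56% of 32851 such windows of mouse genes. The AGGTCA core lies 218 bases before the Plin2 start and 69 bases before the Abhd5 start, and occurs in 14.0% of all windows. The DR1 element, a pair of AGGTCA cores in the same direction with 1 base between them, is bound by PPARG with RXR and was in none of the 13 windows and in 0.0335% of all windows. The E-box CACGTG was found before Lipe and Mgll (6.02% of all windows), the GC box GGGCGG before 6 of the 10 genes (32.7%), and the CCAAT box before Plin2, Plin3 and Plin4 (33.8%). The cAMP response element TGACGTCA (1.55% of all windows), the glucocorticoid element (AGNACA and TGTNCT with 3 bases between them, 0.0609%) and the STAT site TTCNNNGAA (7.02%) were in none of the 13 windows. Both strands were searched. Matches are counted by gene and the shares by window, and Cidec, Lipe and Mgll have more than 1 window. The 13 windows had 52.8% to 74.8% GC, against a median of 52.4% over all windows. A match describes letters and is not shown to be a site, and a missing match says only that these letters are not in this window.

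On mm10, in GENCODE vM21, all 10 genes are protein-coding. On chromosome 7 lie Plin1 (79720218 to 79732903), Pnpla2 (141455198 to 141460743) and Lipe (25379527 to 25398710). Plin3 (56277476 to 56292873) and Plin4 (56100591 to 56109803) lie on chromosome 17, and Cidec (113424634 to 113435760) and Mgll (88724412 to 88828360) on chromosome 6. Plin2 lies on chromosome 4 (86648386 to 86670060), G0s2 on chromosome 1 (193272161 to 193273217) and Abhd5 on chromosome 9 (122351608 to 122381524). MARS-seq tags the 3′ ends of transcripts. The last kilobase is overlapped on the opposite strand by Hdgfl2 at Plin4, Lamb3 at G0s2, 4732471J01Rik at Lipe and A730085K08Rik at Abhd5, and whether counting used the strand is not given in the sources used here. Abhd5 is also marked uncertain: 18.1% of the 31-base stretches near its 3′ ends occur in another gene, against at most 8.21% for the other 9 genes. A730085K08Rik is among the genes that share them, and stretches were matched on both strands, so these doubts are not separate.

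Library totals were 669007 to 1132099 counts in KO_CM, 1758814 to 2025317 in WT_CM, 1387854 to 1801316 in regular_diff and 1458452 to 1836626 in preadipocyte libraries. All 7 adipocyte markers (Adipoq, Fabp4, Cfd, Lpl, Retn, Pparg, Cebpa) were counted in every group, with summed levels of 7897 to 10441 CPM (counts scaled to a library total of 1000000, after TMM) in KO_CM, 30659 to 31387 in WT_CM and 33009 to 36317 in regular_diff libraries. In preadipocyte libraries the sum was 186, 654 and 211 CPM in replicates 4, 5 and 6, so replicate 5 stood apart. All 7 fibroblast and preadipocyte markers (Dlk1, Pdgfra, Pdgfrb, Col1a1, Col3a1, Thy1, Ly6a) summed to 5777 to 6568 CPM in KO_CM, 3863 to 4135 in WT_CM, 2575 to 2787 in regular_diff and 5423 to 6010 in preadipocyte libraries. Col3a1 made up most of each sum. In WT_CM against regular_diff libraries the means of Dlk1 and Pdgfrb were lower and those of the other markers higher. Ly6a was at 14.4 CPM in KO_CM replicate 1, against 342 and 295 CPM in replicates 2 and 3. Of 6 macrophage markers 2 could be analysed, at a sum of at most 14.2 CPM in any library. Of 6 epithelial markers 3 could be analysed, at 8.09 to 26.3 CPM in KO_CM, 24.5 to 52.6 in WT_CM, 28.5 to 33.9 in regular_diff and 4.34 to 9.05 in preadipocyte libraries. Of 3 endothelial markers, none was analysed here. KO_CM replicate 1 and preadipocyte replicate 5 stood furthest from their groups, with a chi-square per degree of freedom of 4.65 and 5.06 for KO_CM replicate 1 and of 7.14 and 6.45 for preadipocyte replicate 5 against the others. Between the other libraries it was 2.88 in KO_CM and 2.52 in preadipocyte. The labels do not state whether replicates are separate cultures. P-values therefore refer to the spread among these libraries, and that spread may be technical only. In bulk RNA, fewer fat cells and less of a transcript per fat cell cannot be told apart.

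As a share of all counts, the 10 genes together made up 0.295% ± 0.018 in KO_CM, 0.881% ± 0.026 in WT_CM, 1.07% ± 0.02 in regular_diff and 0.0554% ± 0.0013 in preadipocyte libraries (mean ± SD, n = 3 each). The 4 ranges did not overlap. KO_CM libraries ranged from 0.280% to 0.314%, WT_CM libraries from 0.856% to 0.907%, regular_diff libraries from 1.05% to 1.09% and preadipocyte libraries from 0.0545% to 0.0569%.

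**Figure D1:**
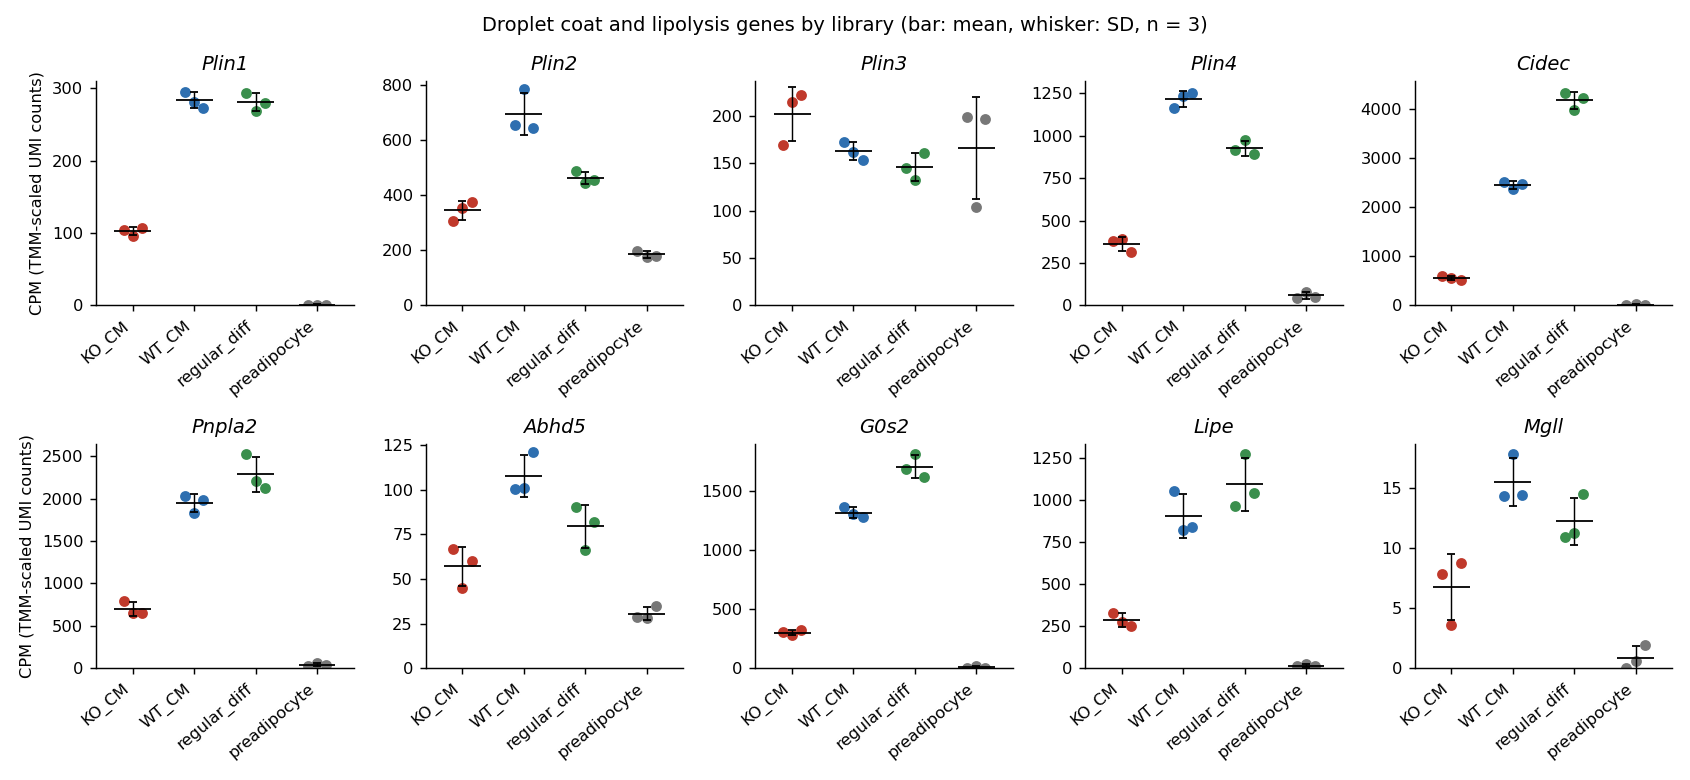
Level of each of the 10 genes in CPM (TMM-scaled UMI counts, linear axes from 0) in the KO_CM, WT_CM, regular_diff and preadipocyte libraries, with each point a library, the bar the mean and the whisker the SD (n = 3). Cidec stands at 521 to 600 CPM in KO_CM and 3994 to 4338 CPM in regular_diff libraries, whereas Plin3 has no such step.

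What the standard cocktail did to these genes was read from regular_diff against preadipocyte libraries. In regular_diff libraries 9 of the 10 genes were higher and none lower, with Plin3 not called. By edgeR's quasi-likelihood test, with p-values adjusted after Benjamini and Hochberg, 51.2% of all 9519 tested genes passed an adjusted p of 0.05, 24.8% higher and 26.4% lower. The median log2 fold change was 4.90 over the 10 genes and -0.06 over all genes tested. The labels give no days in culture for preadipocytes, so time in culture and serum cannot be told apart from the inducers. Scaling by library size alone shifted the median of all genes by -0.16 and gave 1909 genes higher and 3219 lower, against 2362 and 2511 with TMM scaling, and left the 9 calls in place.

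Plin1 had 294, 269 and 280 CPM in regular_diff libraries 4, 5 and 6, against 0.997, 1.24 and 0 CPM in preadipocyte libraries 4, 5 and 6. The preadipocyte values rest on 4 counts in all, so the log2 fold change of 8.36 ± 0.23 (SE; adjusted p = 4.96e-21) has a size that depends on few molecules. Cidec had 4338, 3994 and 4222 CPM in regular_diff libraries, against 2.49, 22.9 and 3.88 CPM in preadipocyte libraries. Its log2 fold change was 8.78 ± 0.54 (adjusted p = 1.02e-06) and lay between 8.26 and 10.36 over the alternatives. The high preadipocyte value is replicate 5, the library with the raised adipocyte marker sum.

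G0s2 followed the same order, with 1684, 1806 and 1614 CPM in regular_diff libraries against 4.99, 20.4 and 4.52 CPM in preadipocyte libraries. Its log2 fold change was 7.43 ± 0.38 (adjusted p = 1.39e-07). Lipe had 966, 1273 and 1045 CPM in regular_diff libraries against 12.5, 24.2 and 10.3 CPM in preadipocyte libraries, a change of 6.13 ± 0.25 (adjusted p = 1.47e-10). In each of these genes the groups were far apart, and preadipocyte replicate 5 was the highest of its group. Pnpla2 had 2521, 2206 and 2123 CPM in regular_diff libraries against 28.9, 61.3 and 32.3 CPM in preadipocyte libraries, a change of 5.81 ± 0.24 (adjusted p = 5.23e-10). Mgll was a low transcript, at 10.9, 11.2 and 14.5 CPM in regular_diff libraries against 0, 0.619 and 1.94 CPM in preadipocyte libraries. Its change of 3.84 ± 0.55 (adjusted p = 1.06e-06) rests on 4 preadipocyte counts.

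Plin4, a perilipin of small nascent droplets, had 915, 977 and 891 CPM in regular_diff libraries against 45.4, 79.9 and 51.7 CPM in preadipocyte libraries, a log2 fold change of 3.98 ± 0.15 (adjusted p = 4.01e-16). Plin2 had 488, 443 and 457 CPM in regular_diff libraries against 198, 177 and 180 CPM in preadipocyte libraries, a change of 1.32 ± 0.11 (adjusted p = 3.54e-11). Abhd5 had 90.1, 66.0 and 82.1 CPM in regular_diff libraries against 28.9, 27.9 and 34.9 CPM in preadipocyte libraries, a change of 1.39 ± 0.17 (adjusted p = 5.1e-08). None of these 3 genes overlapped between the groups. Plin3 had 145, 132 and 161 CPM in regular_diff libraries against 198, 104 and 196 CPM in preadipocyte libraries, and preadipocyte replicate 5 alone lay below the regular_diff values. Its log2 fold change of -0.19 ± 0.20 was not called (adjusted p = 0.461). Without preadipocyte replicate 5 Plin3 was called lower, at -0.45 (adjusted p = 0.00245).

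What medium of p53-deficient cancer cells did to the same genes was read from KO_CM against regular_diff libraries. Of the 10 genes, 8 fell and none rose, while Plin3 and Mgll were not called. Over all genes tested 34.6% were called, 17.2% higher and 17.3% lower. The median log2 fold change was -1.41 over the 10 genes and -0.0026 over all genes tested. The change differed widely within the group, so that KO_CM libraries kept 13.3% of the regular_diff mean for Cidec, 17.7% for G0s2, 26.0% for Lipe, 30.5% for Pnpla2, 36.4% for Plin1 and 39.0% for Plin4. For Abhd5 and Plin2 they kept 71.9% and 74.8%. Total counts of KO_CM libraries were the lowest of the series. With all libraries thinned to the smallest total, 8 of the 10 genes were still called lower, and Plin3 was called higher. Without KO_CM replicate 1 and preadipocyte replicate 5 there were also 8 lower, and Plin3 was higher.

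Among the coat genes, Plin1 had 104, 96.2 and 107 CPM in KO_CM libraries 1, 2 and 3, against the 294, 269 and 280 CPM of regular_diff libraries, a log2 fold change of -1.46 ± 0.13 (adjusted p = 2.41e-10). Plin4 had 380, 389 and 315 CPM in KO_CM libraries and changed by -1.36 ± 0.14 (adjusted p = 2.57e-08). Plin2 had 308, 353 and 377 CPM in KO_CM libraries and changed by -0.42 ± 0.11 (adjusted p = 0.00302). In all 3 genes every KO_CM library was below every regular_diff library, and by the least for Plin2. Plin3 had 170, 215 and 222 CPM in KO_CM libraries, each above the highest regular_diff library. Its log2 fold change of 0.47 ± 0.20 was not called (adjusted p = 0.097). Without preadipocyte replicate 5, whose spread enters the shared fit, Plin3 was called higher at 0.49 (adjusted p = 0.000939). It was also called higher in a fit of the 6 libraries compared, at 0.47 (adjusted p = 0.00636), and with thinned counts, at 0.51 (adjusted p = 0.0453).

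Cidec showed the deepest fall of the 10 genes, with 600, 552 and 521 CPM in KO_CM libraries against 4338, 3994 and 4222 CPM in regular_diff libraries. Its log2 fold change was -2.91 ± 0.38 (adjusted p = 0.000364). G0s2, the ATGL inhibitor, had 308, 277 and 318 CPM in KO_CM libraries and changed by -2.50 ± 0.28 (adjusted p = 8.88e-05). Both lay far below every regular_diff library. Of the lipases, Lipe had 330, 273 and 253 CPM in KO_CM libraries and changed by -1.94 ± 0.19 (adjusted p = 3.5e-06). Pnpla2 had 795, 648 and 650 CPM in KO_CM libraries and changed by -1.71 ± 0.19 (adjusted p = 1.95e-05). Neither overlapped with regular_diff libraries.

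Mgll had 7.83, 3.6 and 8.76 CPM in KO_CM libraries, from 6, 4 and 6 counts, and all were below regular_diff libraries. Its log2 fold change of -0.95 ± 0.43 was not called (adjusted p = 0.0934), and at these counts the depth limits what could be seen. Abhd5, the coactivator of ATGL, had 66.6, 45.0 and 59.8 CPM in KO_CM libraries against 90.1, 66.0 and 82.1 CPM in regular_diff libraries. Here KO_CM replicate 1 lay just above regular_diff replicate 5. The change of -0.51 ± 0.17 was called (adjusted p = 0.0208) but not without KO_CM replicate 2 (-0.31, adjusted p = 0.237), regular_diff replicate 4 (-0.38, adjusted p = 0.137) or regular_diff replicate 6 (-0.46, adjusted p = 0.0804). It was also not called by DESeq2 (adjusted p = 0.0599) or with scaling by library size (adjusted p = 0.0538).

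Beside these falls, the summed adipocyte markers were lower and the summed fibroblast markers higher in KO_CM than in regular_diff libraries, as given above. Their part in the result was not tested. Against preadipocyte libraries, KO_CM libraries were higher in 9 of the 10 genes, with Plin3 not called, where 20.5% of all genes were called, 12.1% higher and 8.40% lower. The log2 fold changes against preadipocyte libraries included 6.90 ± 0.27 for Plin1, 5.87 ± 0.51 for Cidec, 4.93 ± 0.37 for G0s2 and 0.90 ± 0.11 for Plin2. WT_CM libraries were also higher than preadipocyte libraries in 9 of the 10 genes, where 47.1% of all genes were called, 23.1% higher and 24.1% lower. These comparisons share the preadipocyte libraries.

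**Figure D2:**
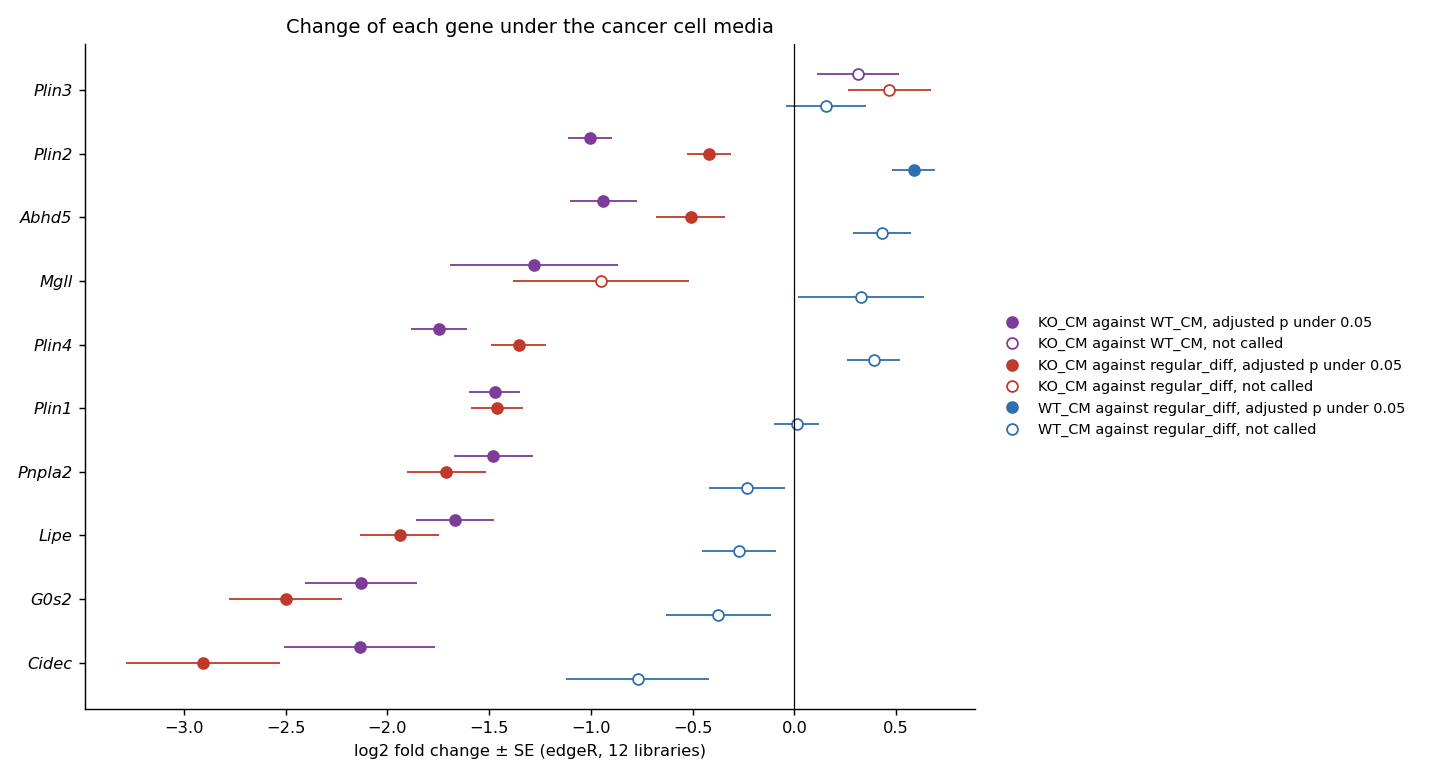
Log2 fold change with its SE (edgeR, 12 libraries) of each of the 10 genes for KO_CM against WT_CM, KO_CM against regular_diff and WT_CM against regular_diff, filled where the adjusted p was under 0.05. Cidec and G0s2 lie furthest to the left in both KO_CM comparisons, and Plin2 at 0.59 is the only filled point among the WT_CM changes.

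The medium of cancer cells with intact p53 was set against the plain protocol in WT_CM against regular_diff libraries. Plin2 rose, and it was the only one of the 10 genes called, while 9.91% of all genes were called, 5.73% higher and 4.18% lower. The median log2 fold change was 0.08 over the 10 genes and -0.01 over all genes tested. Plin2 had 656, 784 and 644 CPM in WT_CM libraries against 488, 443 and 457 CPM in regular_diff libraries, a change of 0.59 ± 0.10 (adjusted p = 0.000249). Every WT_CM library was above every regular_diff library.

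Plin1 was not called, at 295, 282 and 273 CPM in WT_CM libraries against 294, 269 and 280 CPM in regular_diff libraries (0.01 ± 0.11, adjusted p = 0.973). The groups overlapped. Plin4 had 1165, 1233 and 1252 CPM in WT_CM libraries against 915, 977 and 891 CPM in regular_diff libraries, which did not overlap, at 0.39 ± 0.13 and an adjusted p of 0.0608. Abhd5 had 100, 101 and 121 CPM in WT_CM libraries, all above regular_diff libraries, at 0.43 ± 0.14 and an adjusted p of 0.0555.

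Cidec had 2521, 2371 and 2472 CPM in WT_CM libraries against 4338, 3994 and 4222 CPM in regular_diff libraries. The groups lay far apart, at 58.7% of the regular_diff mean, yet the change of -0.77 ± 0.35 was not called (adjusted p = 0.275). G0s2 had 1361, 1305 and 1275 CPM in WT_CM libraries against 1684, 1806 and 1614 CPM in regular_diff libraries, again without overlap (-0.37 ± 0.26, adjusted p = 0.502). Pnpla2 had 2029, 1826 and 1982 CPM in WT_CM libraries, below the lowest regular_diff library (-0.23 ± 0.19, adjusted p = 0.577). Lipe had 1055, 823 and 840 CPM in WT_CM libraries, which overlapped with regular_diff libraries (-0.27 ± 0.18, adjusted p = 0.471). Mgll (14.3, 17.7 and 14.3 CPM in WT_CM libraries; 0.33 ± 0.31, adjusted p = 0.636) and Plin3 (173, 162 and 154 CPM; 0.15 ± 0.20, adjusted p = 0.757) overlapped as well.

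These WT_CM calls depended on which libraries set the spread. The shared estimate includes preadipocyte replicate 5, whose Cidec and G0s2 values lay above the other preadipocyte libraries. Without it 5 of the 10 genes were called, with Plin4 (adjusted p = 0.00259) and Abhd5 (adjusted p = 0.0292) higher beside Plin2, and Cidec (adjusted p = 8.74e-09) and G0s2 (adjusted p = 0.00218) lower. In a fit of the 6 libraries compared 6 genes were called, these 5 and Pnpla2, which was lower (adjusted p = 0.0309). The log2 fold changes themselves hardly moved, at -0.77 for Cidec and 0.39 for Plin4 without replicate 5. In the fit of the 6 libraries compared, calls over all genes rose as well, by the counts given at the end. The gain in calls there was therefore not limited to the 10 genes.

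The media of cancer cells without and with p53 were compared in KO_CM against WT_CM libraries, which received the same mix. Cancer cell clones and batches of medium are not in the sample labels, so they cannot be told apart from p53 state. KO_CM libraries also had the lower total counts, as given above. KO_CM libraries were lower in 9 of the 10 genes and higher in none, again with Plin3 not called, where 27.6% of all genes were called, 13.6% higher and 13.9% lower. The median log2 fold change was -1.48 over the 10 genes and -0.01 over all genes tested. Cidec changed by -2.14 ± 0.37 (adjusted p = 0.00272) and G0s2 by -2.13 ± 0.28 (adjusted p = 0.000361). Plin4 fell by 1.75 on the log2 scale (SE 0.14, adjusted p = 9.02e-10), more than Plin1 (-1.47 ± 0.13, adjusted p = 4.51e-10) and Plin2 (-1.01 ± 0.11, adjusted p = 2.86e-08), though these differences between genes were not tested here.

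Among the lipases, Lipe changed by -1.67 ± 0.19 (adjusted p = 2.26e-05) and Pnpla2 by -1.48 ± 0.19 (adjusted p = 0.000101). Abhd5 changed by -0.94 ± 0.17 (adjusted p = 6.58e-05), with 66.6, 45.0 and 59.8 CPM in KO_CM libraries against 100, 101 and 121 CPM in WT_CM libraries and no overlap. Mgll changed by -1.28 ± 0.41 (adjusted p = 0.0205). That call was lost without KO_CM replicate 2 (-0.87, adjusted p = 0.186), without WT_CM replicate 2 (-1.15, adjusted p = 0.0731) and with DESeq2 (adjusted p = 0.0607). Plin3, with 170, 215 and 222 CPM in KO_CM libraries against 173, 162 and 154 CPM in WT_CM libraries, overlapped between the groups (0.31 ± 0.20, adjusted p = 0.293). It was called higher without preadipocyte replicate 5 (0.34, adjusted p = 0.0233).

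The means of Plin2 ran in the order WT_CM, regular_diff, KO_CM and preadipocyte (695, 463, 346 and 185 CPM), with each neighbouring pair called. Plin4, Abhd5 and Mgll had the same order of means, but WT_CM and regular_diff were not called apart, nor for Mgll regular_diff and KO_CM. Plin1 had near-equal means in WT_CM and regular_diff, followed by KO_CM and preadipocyte. For Cidec, G0s2, Pnpla2 and Lipe the order was regular_diff, WT_CM, KO_CM and preadipocyte, and the first 2 of these were not called apart. Plin3 had its highest mean in KO_CM libraries (202 CPM), followed by preadipocyte (166), WT_CM (163) and regular_diff (146), and none of its group pairs was called. The KO_CM comparisons with regular_diff and with WT_CM share the KO_CM libraries and are given side by side only.

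Ratios between genes of the same library do not depend on library scaling. For each library the counts of 1 gene were divided by those of another, and group means of the log2 ratio were compared by a two-sided exact permutation test, which with 3 against 3 libraries cannot go below 0.1. In all, 6 ratios were compared over 6 pairs of groups, so that the 36 adjusted p-values (Benjamini-Hochberg) could not pass 0.05. The ratio of Plin2 to Plin1, the general over the adipocyte coat gene, was 2.95, 3.67 and 3.53 in KO_CM, 2.22, 2.79 and 2.36 in WT_CM and 1.66, 1.65 and 1.63 in regular_diff libraries. The 3 groups did not overlap. The ratio was 2.05-fold higher in KO_CM than in regular_diff libraries, 1.49-fold higher in WT_CM than in regular_diff libraries and 1.38-fold higher in KO_CM than in WT_CM libraries (exact p = 0.1 and adjusted p = 0.157 each). In preadipocyte libraries Plin1 had 2, 2 and 0 counts, and no ratio over it is read there.

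Cidec to Plin1 went the other way, at 5.75, 5.74 and 4.89 in KO_CM, 8.54, 8.42 and 9.05 in WT_CM and 14.8, 14.8 and 15.1 in regular_diff libraries, with no overlap. On the log2 scale the differences from regular_diff were -1.45 for KO_CM and -0.78 for WT_CM libraries, and the difference of KO_CM from WT_CM was -0.67 (exact p = 0.1 each). G0s2 to Pnpla2, inhibitor to lipase, was 0.388, 0.428 and 0.490 in KO_CM, 0.671, 0.715 and 0.643 in WT_CM and 0.668, 0.819 and 0.760 in regular_diff libraries. KO_CM libraries lay below both other groups, by log2 differences of -0.79 from regular_diff and -0.64 from WT_CM libraries (exact p = 0.1 each). WT_CM and regular_diff libraries overlapped (-0.14, exact p = 0.3).

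The ratio of Abhd5 to Pnpla2, coactivator to lipase, moved opposite to that of the inhibitor. It was 0.0837, 0.0694 and 0.0921 in KO_CM, 0.0495, 0.0554 and 0.0611 in WT_CM and 0.0358, 0.0299 and 0.0387 in regular_diff libraries. KO_CM libraries were 2.35-fold above regular_diff libraries and 1.47-fold above WT_CM libraries, without overlap (exact p = 0.1 each), with the doubt on Abhd5 counts stated above. Lipe to Pnpla2 sets the lipase of the next step over that of the first. The ratio was 0.415, 0.421 and 0.389 in KO_CM, 0.520, 0.451 and 0.424 in WT_CM and 0.383, 0.577 and 0.492 in regular_diff libraries. KO_CM and regular_diff libraries overlapped (log2 difference -0.23, exact p = 0.4), whereas KO_CM libraries lay below WT_CM libraries without overlap (-0.18, exact p = 0.1). WT_CM and regular_diff libraries overlapped (-0.04, exact p = 0.9). For Mgll to Pnpla2, KO_CM libraries overlapped with regular_diff (0.77, exact p = 0.2) and with WT_CM libraries (0.19, exact p = 0.6), and WT_CM libraries were 1.49-fold above regular_diff libraries without overlap (exact p = 0.1).

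**Figure D3:**
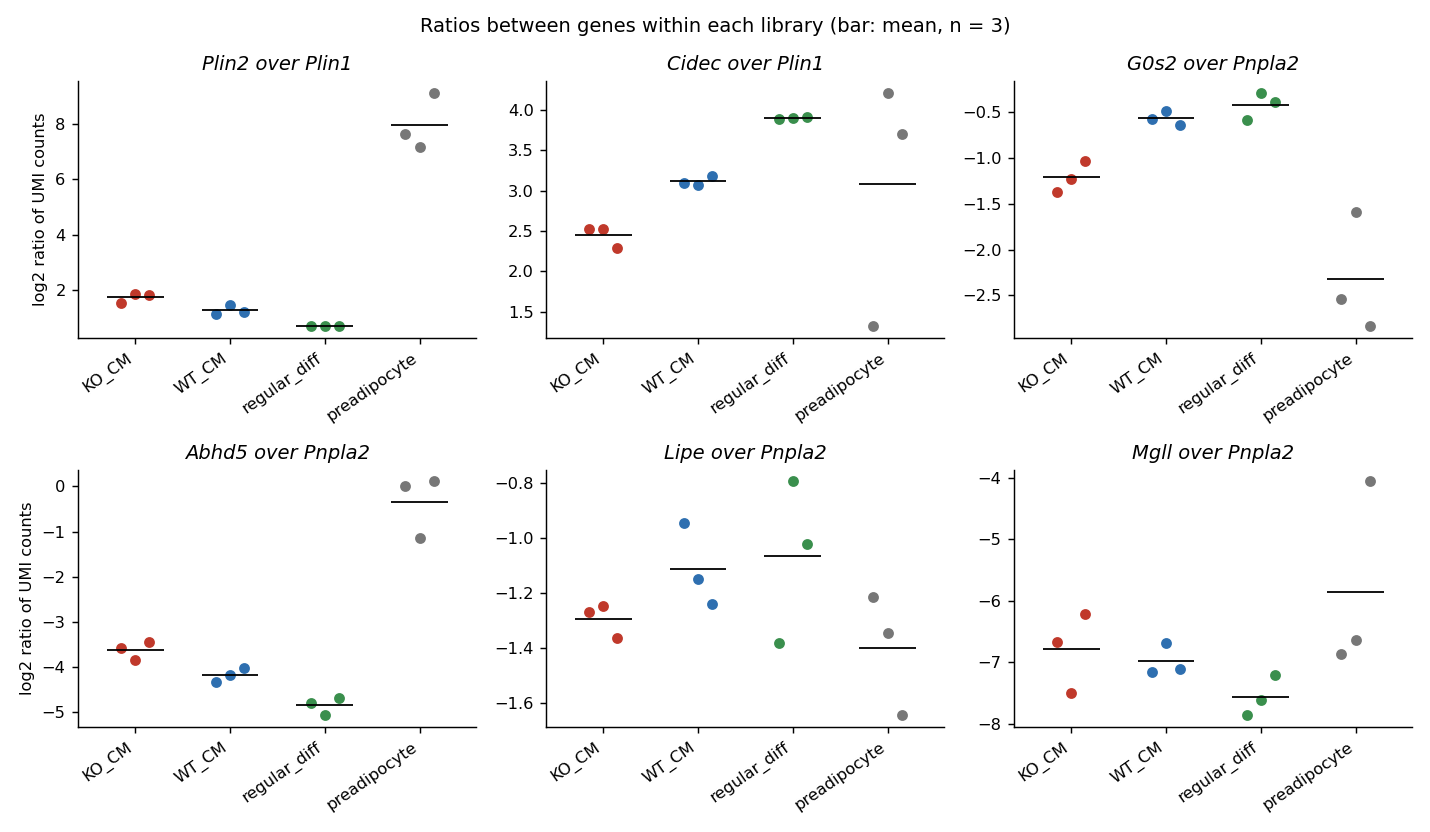
Log2 ratio of UMI counts between 2 genes of the same library for 6 gene pairs in KO_CM, WT_CM, regular_diff and preadipocyte libraries, with each point a library and the bar the group mean (n = 3); where a preadipocyte count was 0, 0.5 was added to both genes. Plin2 over Plin1 and Abhd5 over Pnpla2 step down over KO_CM, WT_CM and regular_diff, while Cidec over Plin1 steps up.

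Over the 12 libraries, 9 of the 10 genes followed one another closely, with Pearson correlations of log2 CPM from 0.888 to 0.998, the highest between Cidec and G0s2. Plin3 correlated with the other 9 at -0.18 to -0.02. These are descriptions over libraries of 4 groups, dominated by the step between preadipocyte and differentiated libraries. Among 6399 genes with a mean of at least 20 CPM, Mrap, a melanocortin receptor accessory protein, had the profile most like that of Plin1 (root mean square difference of centred log2 CPM 0.28, 12 libraries). It was followed by Rarres2, the chemerin precursor (0.49), Acsl1, a fatty acid activating enzyme (0.53), Slc2a4, the insulin-responsive glucose transporter (0.53), and Wfdc21 (0.58). Rarres2 and Acsl1 share 54.7% and 11.2% of their stretches near the 3′ ends with another gene and are uncertain.

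The profile most like that of Plin2 belonged to other genes, Cbr3, a carbonyl reductase (0.14), Cavin1, a caveolar coat gene (0.14), Cela1 (0.15), Ghr, the growth hormone receptor (0.17), and Dab2ip (0.18). Cbr3 averaged 89.9 CPM in KO_CM, 194 CPM in WT_CM, 136 CPM in regular_diff and 55.9 CPM in preadipocyte libraries. Mrap averaged 177 CPM in KO_CM, 590 CPM in WT_CM, 648 CPM in regular_diff and 2.59 CPM in preadipocyte libraries.

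Wider lists of the pathway were counted in the same fit. Between KO_CM and regular_diff libraries 34.6% of all genes tested were called, 17.2% higher and 17.3% lower. Of 14 tested genes of droplet surface and assembly (19 listed), KO_CM against regular_diff libraries gave 7 lower and 1 higher, with a median of -0.44. Pnpla3, a lipase relative on the droplet, had 3.92, 4.5 and 4.38 CPM in KO_CM libraries against 30.9, 27.0 and 41.1 CPM in regular_diff libraries and changed by -2.93 ± 0.41 (adjusted p = 1.29e-06), from 3 to 5 KO_CM counts. Bscl2, or seipin, which organises droplet budding, changed by -1.81 ± 0.21 (adjusted p = 7.34e-08). Cav1, the caveolar protein, changed by -1.18 ± 0.12 (adjusted p = 1.12e-08) and Fitm2, needed for droplet formation at the endoplasmic reticulum, by -1.09 ± 0.24 (adjusted p = 0.000603). The gene that rose was Faf2, a ubiquitin-pathway protein on droplets, at 0.48 ± 0.18 (adjusted p = 0.0382), with overlapping groups, and it was named after its value was seen. That call was lost with DESeq2 (adjusted p = 0.103), with thinned counts (0.31, adjusted p = 0.3), without KO_CM replicate 1 and preadipocyte replicate 5 together (adjusted p = 0.0627), and without KO_CM replicate 1 or 3 or regular_diff replicate 4 or 6.

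Of 10 tested genes of other neutral lipases and product handling (12 listed), 7 were lower and none higher in KO_CM than in regular_diff libraries, with a median of -1.40. For all genes tested these shares were 17.3% lower and 17.2% higher. Ces1d, a triglyceride hydrolase, had 45.7, 36.9 and 24.8 CPM in KO_CM libraries against 307, 316 and 257 CPM in regular_diff libraries. It changed by -3.01 ± 0.16 (adjusted p = 1.79e-14). Its relative Ces1f changed by -2.41 ± 0.20 (adjusted p = 5.17e-10), the fatty acid binding gene Fabp5 by -1.96 ± 0.31 (adjusted p = 0.00122), and Aqp7, the glycerol channel, by -1.78 ± 0.30 (adjusted p = 2.55e-05). Pnpla3, Aqp7 and Fabp5 share 24.0%, 15.6% and 11.7% of their stretches near the 3′ ends with another gene and are uncertain.

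Of 20 tested genes of the cAMP, insulin and natriuretic peptide control of lipolysis (32 listed), 9 were lower and 4 higher in KO_CM than in regular_diff libraries, with a median of -0.32. For all genes tested the shares were again 17.3% lower and 17.2% higher. Adrb3, the beta-3 adrenergic receptor that starts lipolysis, had 17.0, 12.6 and 11.7 CPM in KO_CM, 88.2, 75.7 and 76.3 CPM in WT_CM and 179, 163 and 196 CPM in regular_diff libraries. It changed by -3.71 ± 0.19 in KO_CM (adjusted p = 1.47e-14) and by -1.16 ± 0.13 in WT_CM (adjusted p = 2.17e-07) against regular_diff libraries, with no overlap. It shares 24.8% of its stretches with another gene and is uncertain. The receptors Hcar1 and Hcar2, which restrain lipolysis by lowering cAMP, changed in KO_CM against regular_diff libraries by -2.03 ± 0.20 (adjusted p = 2.29e-09) and -1.81 ± 0.21 (adjusted p = 9.1e-08). Pde4b, a cAMP-degrading enzyme, rose, with 13.1, 30.6 and 21.9 CPM in KO_CM libraries against 4.84, 3.75 and 5.21 CPM in regular_diff libraries (2.26 ± 0.36, adjusted p = 1.2e-05). Among the genes named, falls therefore lay on the activating side (Adrb3) and on the restraining side (Hcar1, Hcar2). Pde4b is the only one named of the 4 genes that rose, and the sides were not counted over the whole list.

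In WT_CM against regular_diff libraries the same lists gave 1 higher and 2 lower of 14, none higher and 2 lower of 10, and 1 higher and 3 lower of 20, with medians of -0.06, 0.00 and 0.08. Over all genes tested 9.91% were called, 5.73% higher and 4.18% lower. The 9 called were Cavin1 (0.39 ± 0.11, adjusted p = 0.0223), Pnpla3 (-1.10 ± 0.27, adjusted p = 0.00651), Cav1 (-0.50 ± 0.12, adjusted p = 0.00558), Abhd6 (-1.13 ± 0.23, adjusted p = 0.00101), Ces1d (-0.84 ± 0.12, adjusted p = 2.04e-05), Pde4b (1.29 ± 0.36, adjusted p = 0.0208), Adrb3, Prkar2b (-0.44 ± 0.12, adjusted p = 0.0185) and Adcy6 (-0.37 ± 0.11, adjusted p = 0.0238). Leaving out 1 library ended the calls of Cavin1, Pnpla3, Pde4b, Prkar2b and Adcy6 for some libraries. KO_CM against WT_CM libraries gave no gene higher and 5 lower of 14 (median -0.47), none higher and 5 lower of 10 (-1.24), and 4 higher and 7 lower of 20 (-0.38). In that comparison 27.6% of all genes tested were called, 13.6% higher and 13.9% lower. Adrb3 changed by -2.55 ± 0.21 there (adjusted p = 2.51e-10), Ces1f by -2.44 ± 0.19 (adjusted p = 8.38e-10), Ces1d by -2.18 ± 0.16 (adjusted p = 4.57e-11) and Pnpla3 by -1.83 ± 0.45 (adjusted p = 0.00267).

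Under differentiation, regular_diff against preadipocyte libraries, the 3 lists gave 7 higher and 1 lower of 14 (median 0.51), 6 higher and none lower of 10 (2.76), and 10 higher and 6 lower of 20 (0.90). In that comparison 51.2% of all genes tested were called, 24.8% higher and 26.4% lower. Aqp7 and Hcar2 were at 0 counts in preadipocyte libraries and were at least 69.0-fold and at least 132-fold higher in regular_diff libraries, with the preadipocyte group set to a floor of 3 counts in all. The medians were the same with these genes at their bounds. Adrb3 had 1 count in preadipocyte libraries, a ratio of 935 (95% counting interval 167 to 36962, counting error only), and Hcar1 also had 1, a ratio of 496 (88.6 to 19649). Pnpla3 had 3 counts in preadipocyte libraries, a ratio of 57.7 (19.4 to 283). Bscl2 rose by 3.27 ± 0.22 (adjusted p = 4.52e-13), Fitm2 by 3.02 ± 0.26 (adjusted p = 1e-10), Cav1 by 2.52 ± 0.13 (adjusted p = 2.68e-15) and Ces1d by 6.82 ± 0.22 (adjusted p = 4.18e-20) on the log2 scale.

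**Figure D4:**
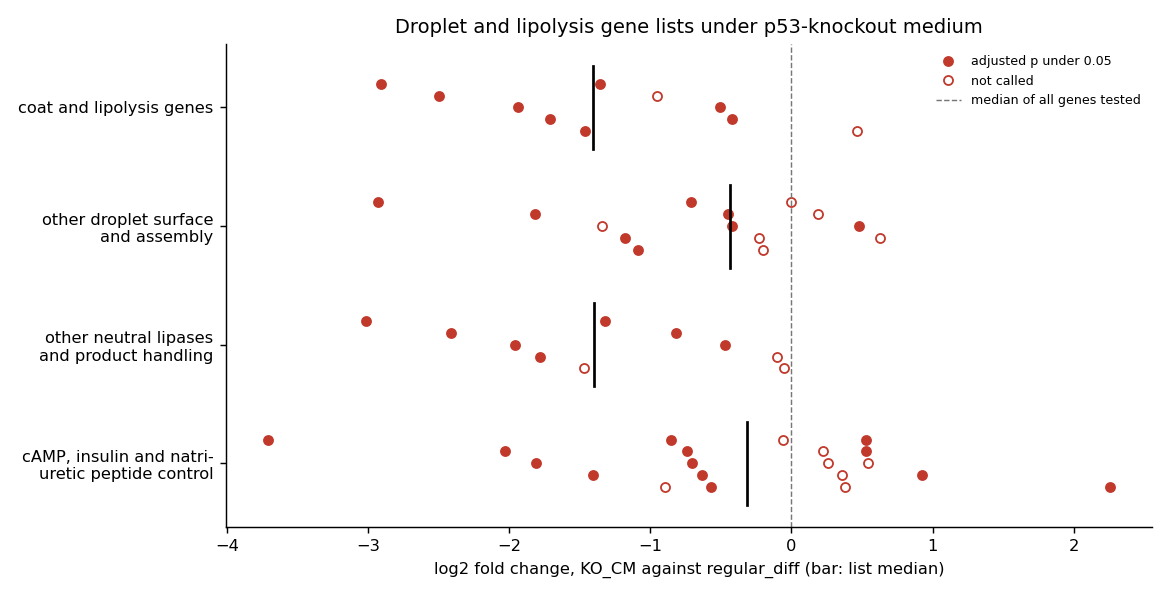
Log2 fold change in KO_CM against regular_diff of each tested gene in the set of 10 and in 3 wider lists, filled where the adjusted p was under 0.05, with a bar at each list's median and a dashed line at the median of all genes tested. The medians lie at -1.41 for the 10 genes, -0.44 for droplet surface and assembly, -1.40 for other lipases and product handling and -0.32 for the control list.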

How the data were processed

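UMI counts per gene were deposited by the authors as raw whole numbers in 1 table of 11035 genes, from 30 ng of RNA per sample in a pooled MARS-seq library. The submitters' processing notes name cutadapt, HTSeq, DESeq2 and the build mm10. Their versions, the annotation and the strand setting are not stated in what was used here. The table holds 24 other columns of per-sample values, which were not used.

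The sample titles give group and replicate number. The counts of all 12 libraries were fitted together by 4 group means (edgeR 4.0.16, R 4.3.3), with TMM scaling and the robust quasi-likelihood option. filterByExpr kept 9519 genes for testing and set 1516 aside. Two-sided p-values were adjusted over all tested genes (Benjamini-Hochberg), with calls at 0.05, and the common biological coefficient of variation was 0.126. Within-group pairs of libraries differed by more than sampling noise (chi-square per degree of freedom 2.04 to 7.14). Whether same-numbered libraries pair is not in the labels, so the numbers were not taken as pairs, with a replicate block as an alternative. Deviations of same-numbered libraries from their group means correlated at -0.05 to 0.12, against -0.11 to 0.08 for unlike numbers. With 3 libraries per group this cannot show that pairing is absent. Log2 CPM used a prior count of 2.

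The 10 genes and the wider lists were chosen with earlier results of these data known. Named are all 10 genes, up to 4 called genes per wider list and comparison by size of change, and the 5 genes most like Plin1 and Plin2. Faf2 is named outside this rule, and Pde3b and Pde4d as relatives of Pde4b. Which of the others the text gives was settled with their values known, and the 9 motifs were chosen after a first look at the windows. Coordinates are from GENCODE vM21, with 87 of 87 genes matched, and promoter windows from RefSeq, with 10 of 10 genes matched. Genes were marked uncertain where over 10% of 31-base stretches in the last 500 bases of their transcripts occur in another gene. The test was checked on simulated counts. Alternatives were DESeq2 1.42.0, other scalings, no filter, no robust fit, thinned counts, only the libraries compared, a replicate block, and libraries left out. Figures were drawn with matplotlib 3.10.9 in Python 3.11.15.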

Additional observations from a re-analysis of the deposited data

How the results depend on the processing

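No direction of a called value reversed under any alternative run. The count of the 10 genes called stayed within 1.5 times its value in all comparisons but WT_CM against regular_diff, where it was 1. There it was 2 with scaling by library size, 2 with DESeq2, 2 without the filter on low counts, 3 with counts thinned to the smallest total, 6 with only the libraries compared and 7 without preadipocyte replicate 5 and KO_CM replicate 1 together. It was 1 to 5 with each library left out in turn, with 5 without preadipocyte replicate 5 and 3 without KO_CM replicate 1. The wider lists gave 9 calls in this comparison, 15 with only the libraries compared, 5 with thinned counts and 5 to 10 with each library left out, the lowest without regular_diff replicate 4 or 6 or WT_CM replicate 1. Over all genes, 943 were called there, against 1480 with only the libraries compared, 1447 without the pair of doubted libraries, 522 with thinned counts, and 595 to 1168 with each library left out. Without the pair of doubted libraries 8 of the 10 genes were lower and Plin3 higher in KO_CM than in regular_diff libraries (0.57, adjusted p = 6.9e-05).

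Of the alternatives' 1213 fold changes of the 10 genes, 1170 kept their call, 35 gained one and 8 lost one, the last for Abhd5 and Mgll as given with their values. Among listed genes in WT_CM against regular_diff, Pnpla3 was not called without regular_diff replicate 6 (adjusted p = 0.089) or WT_CM replicate 3 (0.0743), nor Pde4b with DESeq2 (0.0605), and Cavin1, Pde4b, Prkar2b and Adcy6 also lost their calls without some libraries. The cause was not tested. All 282 ratio values stayed within the larger SD of the groups compared from their main value. Small differences could still change sign. That of Lipe to Pnpla2 between WT_CM and regular_diff libraries did so without regular_diff replicate 5.

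With the replicate number as a block, 9 of the 10 genes were called in regular_diff against preadipocyte and 9 in KO_CM against WT_CM, as without it, and it changed no call of the 10 genes. The block gave 29 and 19 calls in the wider lists, against 30 and 21. Depth limits Mgll, at 4 to 6 counts in KO_CM libraries, and Plin1, at 4 counts over the preadipocyte group. Fewer fat cells and less RNA per cell cannot be told apart, and no group had unconditioned medium in the mix.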
